A study of Mus musculus with 9 samples.

Results

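Solute carriers other than the mitochondrial family and a set of well-studied members were compared in mouse macrophages grown from bone marrow and exposed to 15d-PGJ2-PC, to 15d-PGJ2 or to medium. The members were selected on their name and on measured FPKM values: the genes whose symbol starts with Slc and a number and whose FPKM (fragments per kilobase of transcript, scaled to sequencing depth) reached 1 in at least 3 of the 9 libraries. All Slc25a genes and 12 genes were left out by name: Slc7a11, Slc3a2, Slc7a5, Slc7a1, Slc2a1, Slc16a1, Slc16a3, Slc48a1, Slc40a1, Slc11a1, Slc11a2 and Slc30a1. That left 145 members of the 320 Slc genes and 18049 genes in the table. A further 116 Slc genes met the name rule but not the level; each was above 0 in at least 1 library, and the highest single value among them was 1.45 FPKM. Just outside the filter, the third-highest of 9 values was 0.98 FPKM for Slc10a1 and 0.9 for Slc13a2; just inside, it was 1.04 for Slc30a4 and 1.08 for Slc2a3.

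The cells were grown in RPMI from the marrow of C57BL/6 mice aged 8 weeks. Cells of the first group were given 15d-PGJ2-PC and those of the second 15d-PGJ2, each at 1 µM for 6 h; the third group, the control, had medium alone for 6 h. Each group had 3 libraries. 15d-PGJ2 is a cyclopentenone prostaglandin, an electrophile known as a ligand of PPARγ and an activator of the stress factor Nrf2; the labels do not spell out PC. Whether the libraries of a group came from separate cultures or animals is not stated; a p-value here then measures how these libraries vary, and that variation may be technical.

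Solute carriers are membrane proteins that move small molecules across the plasma membrane or the membranes of organelles, either down a gradient or coupled to sodium, protons or a counter-substrate. Families are numbered by sequence, so that one family can carry unlike substrates and one substrate can use several families. Macrophages use them to take up amino acids and sugars, to return the products of digested cargo from lysosomes, and to move metals and nucleosides that engulfed cells release. Here 140 members were placed in 14 classes by the substrate best known for the family, and single genes were moved where their own known substrate differs. The 5 members that only share the symbol were kept apart.

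Low values stepped in whole reads at 5.29 to 5.4 M reads per library (tolerance 0.15 reads), and 1 FPKM then stood for about 17.4 reads in a member of median length. Summed FPKM per library was 469548 to 492998. Library profiles within a group had correlations across genes of 0.987 to 0.989. All 12 macrophage markers were detected and summed to 6164 to 6344 FPKM with 15d-PGJ2-PC, 5257 to 5657 with 15d-PGJ2 and 6836 to 7076 in control. Markers of other cells were scarce but uneven: 12 stromal markers summed to 10.1 to 10.8 FPKM with 15d-PGJ2-PC, 12.1 to 15.8 with 15d-PGJ2 and 44.5 to 51.2 in control. The 10 epidermal markers in the table summed to 1.83 to 3.6 FPKM with 15d-PGJ2-PC, 2.34 to 3.85 with 15d-PGJ2 and 27.1 to 33.5 in control, and 7 of them, Krt5 and Krt14 among them, were at 0 in every treated library. The 6 erythroid markers summed to 0.64 to 1.29 FPKM with 15d-PGJ2-PC, 1.31 to 1.47 with 15d-PGJ2 and 20.5 to 32.6 in control. The 9 neutrophil markers summed to 27.1 to 31.6 FPKM with 15d-PGJ2-PC, 17.1 to 21.0 with 15d-PGJ2 and 35.2 to 37.8 in control, and the lymphoid ones to at most 0.83. The part these markers have in the results below was not tested, and in bulk RNA fewer cells of a type and less RNA per cell cannot be told apart.

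Members that moved went both ways. Calls are counted over the 134 members that still reach the level filter when any 1 group is set aside. With 15d-PGJ2-PC, 17 of the 134 rose and 19 fell against control; with 15d-PGJ2, 31 rose and 36 fell. The members called were 26.9% with 15d-PGJ2-PC, where 27.8% of all 11309 genes tested were called, and 67 of 134 with 15d-PGJ2, where 47.2% of all genes were. Between the treatments, 24 members were higher and 15 lower with 15d-PGJ2-PC than with 15d-PGJ2, 29.1% of members against 20.6% of all genes. By direction, all genes rose in 13.8% and fell in 14.1% of cases with 15d-PGJ2-PC, rose in 22.2% and fell in 25.0% with 15d-PGJ2, and were higher in 12.3% and lower in 8.30% with 15d-PGJ2-PC than with 15d-PGJ2. Libraries did not overlap for 29 of these members above and 30 below control with 15d-PGJ2-PC (41.8% of all genes), for 35 above and 44 below with 15d-PGJ2 (55.1%), and for 34 above and 26 below between the treatments (37.3%). All genes had to meet the level filter only, with no group set aside, so their shares and those of the 134 are not over like sets. A call is an adjusted p under 0.05 in limma's moderated test on log2(FPKM + 1), a scale that understates changes of genes near 1 FPKM. The median log2 change of the members was −0.02 with 15d-PGJ2-PC and −0.05 with 15d-PGJ2, beside 0.00 and −0.02 over all genes. Against control the members thus lay near the background in share called and in median. Between the treatments the share called was larger among members, 29.1% against 20.6%. The 3 comparisons share libraries, the same controls serving both treatments, and each gene's values are therefore set side by side.

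**Figure D1:**
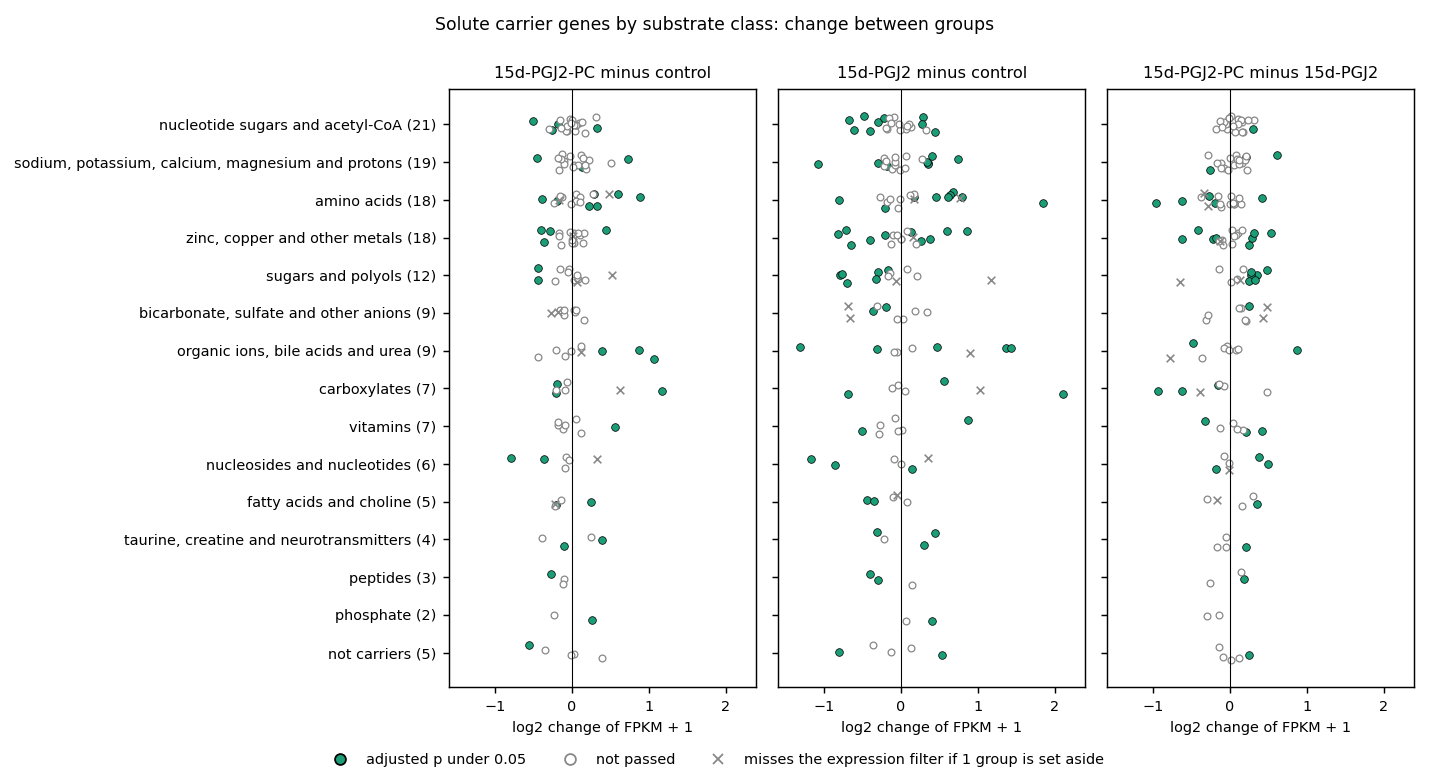
Log2 change of each of the 145 members (points, horizontal axis, on the log2(FPKM + 1) scale) by substrate class (rows), with 1 panel each for 15d-PGJ2-PC minus control, 15d-PGJ2 minus control and 15d-PGJ2-PC minus 15d-PGJ2; filled points passed the test and crosses mark the 11 members that would miss the level filter if 1 of the groups were set aside. Changes with 15d-PGJ2-PC span −0.80 to 1.17 and those with 15d-PGJ2 are wider, with Slc16a9 farthest to the right at 2.11 and Slc14a1 farthest to the left at −1.32.

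Levels spread widely. Only 4 members averaged 100 FPKM or more over the 9 libraries, the dicarboxylate carrier Slc13a3, the peptide carrier Slc15a3, the taurine carrier Slc6a6 and the copper protein Slc31a2; 63 lay between 10 and 100 FPKM and 78 below. All 4 abundant members fell with 15d-PGJ2-PC and 3 of them with 15d-PGJ2. The fall of Slc6a6 with 15d-PGJ2-PC was small (log2 change −0.11), and its call was lost in 9 of the 17 alternatives. Of the 67 members under 10 FPKM that keep the filter without any 1 group, 6 rose and 0 fell with 15d-PGJ2-PC, and 12 rose and 11 fell with 15d-PGJ2. Over all genes at any level, 13.8% rose and 14.1% fell with 15d-PGJ2-PC, and 22.2% rose and 25.0% fell with 15d-PGJ2. Shares of all genes at like levels were not taken, so no link of level and direction is drawn. Together the 145 members summed to 3294 ± 11.9 FPKM with 15d-PGJ2-PC, 3248 ± 11.5 with 15d-PGJ2 and 3513 ± 15.2 in control (SD, n = 3 libraries each), which was 0.681% of all FPKM with 15d-PGJ2-PC, 0.661% with 15d-PGJ2 and 0.735% in control. The classes below are counted over the same 134 members; the other 11 enter the class sums and are described at the end by their values. Of the calls over the 134, 26 of 36 with 15d-PGJ2-PC, 54 of 67 with 15d-PGJ2 and 26 of 39 between the treatments held in each of the 9 fits that left out 1 library. Where a call described below was lost, or a difference passed, in another fit, its adjusted p there is given in brackets after the library or setting, followed by its range over all 17 alternatives. The fit with the replicate number as a block is given with the other settings at the end.

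**Figure D2:**
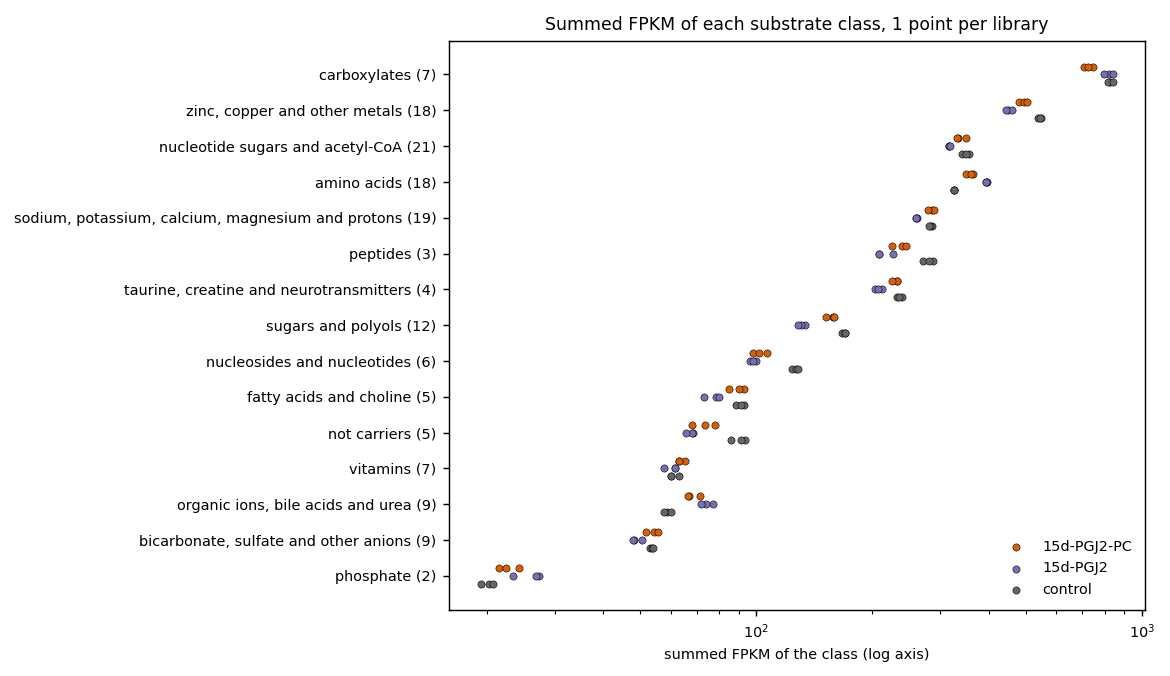
Summed FPKM of each substrate class (rows) in each of the 9 libraries (points, log10 axis), coloured by group, with all members of a class summed. Amino acid carriers summed higher in all 6 treated libraries than in control, metal carriers lower, and the carboxylate class was lower with 15d-PGJ2-PC only, where Slc13a3 makes up 93.1% of the control sum.

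Amino acid carriers showed more rises than falls. Of 16 members, 5 rose and 2 fell with 15d-PGJ2-PC, 7 rose and 2 fell with 15d-PGJ2, and 1 stood higher and 4 lower with 15d-PGJ2-PC than with 15d-PGJ2. That was 43.75% called with 15d-PGJ2-PC, 56.25% with 15d-PGJ2 and 31.25% between the treatments, beside 27.8%, 47.2% and 20.6% of all genes. Rises alone were 31.25% and 43.75% of the class against control, beside 13.8% and 22.2% of all genes. The median log2 change of the class was 0.08 with 15d-PGJ2-PC and 0.14 with 15d-PGJ2, and its summed level was 358 ± 7.3 FPKM with 15d-PGJ2-PC, 395 ± 1.5 with 15d-PGJ2 and 326 ± 0.335 in control. Slc43a2, a sodium-independent carrier of large neutral amino acids and the most abundant of the class, had 95.9, 89.7 and 93 FPKM with 15d-PGJ2-PC, 117, 109 and 112 FPKM with 15d-PGJ2, and 74.9, 74.5 and 72 FPKM in control. The 3 groups did not overlap and stood in the order 15d-PGJ2, 15d-PGJ2-PC, control from high to low. Slc43a2 rose with 15d-PGJ2-PC (log2 change 0.33, SE 0.04, adjusted p = 0.000148) and with 15d-PGJ2 (log2 change 0.61, SE 0.04, adjusted p = 5.16e-07), and was lower with 15d-PGJ2-PC than with 15d-PGJ2 (log2 difference −0.28, SE 0.04, adjusted p = 0.000688).

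Slc38a2, the sodium-coupled carrier of small neutral amino acids that cells are known to induce when amino acids run short, had 50.4, 52.7 and 54.1 FPKM with 15d-PGJ2-PC, 57.8, 61.8 and 60.5 FPKM with 15d-PGJ2, and 33.5, 33.8 and 35 FPKM in control. Every treated library lay above every control library. Slc38a2 rose with 15d-PGJ2-PC (log2 change 0.60, SE 0.04, adjusted p = 4.41e-06) and with 15d-PGJ2 (log2 change 0.80, SE 0.04, adjusted p = 1.39e-07), and was lower with 15d-PGJ2-PC than with 15d-PGJ2 (log2 difference −0.19, SE 0.04, adjusted p = 0.0117). The Slc38a2 call between the treatments was lost without 15d-PGJ2-PC replicate 1 (0.0512) or without 15d-PGJ2 replicate 2 (0.0505), range 0.00611 to 0.0512. Slc6a9, the glycine carrier, was low in control and had 2.96, 2.74 and 3.03 FPKM with 15d-PGJ2-PC, 6.64, 7.64 and 5.78 FPKM with 15d-PGJ2, and 0.92, 1.58 and 0.93 FPKM in control. Its groups were apart in all 3 comparisons. Slc6a9 rose with 15d-PGJ2-PC (log2 change 0.88, SE 0.14, adjusted p = 0.000817), more with 15d-PGJ2 (log2 change 1.85, SE 0.14, adjusted p = 1.38e-06), and the 2 treatments differed (log2 difference −0.97, SE 0.14, adjusted p = 0.000685). Of its exon bases, 38.8% lie opposite exons of Ccdc24, whose mean was 0.047 FPKM with 15d-PGJ2-PC, 0.233 with 15d-PGJ2 and 0 in control; whether the counting used strand is not given in the sources used here, so reads of overlapping genes cannot be told apart.

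Slc1a4, an exchanger of serine, alanine, cysteine and threonine, moved with 15d-PGJ2 and had 7.51, 7.03 and 8.7 FPKM with 15d-PGJ2-PC, 11.3, 13.1 and 13 FPKM with 15d-PGJ2, and 6.68, 8.5 and 7.07 FPKM in control. The 15d-PGJ2-PC and control libraries overlapped, and the 15d-PGJ2 libraries lay above both. Slc1a4 rose with 15d-PGJ2 (log2 change 0.68, SE 0.10, adjusted p = 0.00032), gave no detectable change with 15d-PGJ2-PC (log2 change 0.06, 95% interval −0.18 to 0.29, adjusted p = 0.739), and the treatments differed (log2 difference −0.62, SE 0.10, adjusted p = 0.00181). Slc7a7, the light chain that pairs with Slc3a2 to export cationic amino acids, went the other way with 35.3, 35.3 and 32.2 FPKM with 15d-PGJ2-PC, 26.2, 24.2 and 25.9 FPKM with 15d-PGJ2, and 44, 45.6 and 46.6 FPKM in control. No 2 groups overlapped, and control was the highest. Slc7a7 fell with 15d-PGJ2-PC (log2 change −0.40, SE 0.05, adjusted p = 0.000277) and 15d-PGJ2 (log2 change −0.81, SE 0.05, adjusted p = 4.84e-07) and stood higher with 15d-PGJ2-PC than with 15d-PGJ2 (log2 difference 0.42, SE 0.05, adjusted p = 0.000319). The lysosomal glutamine carrier Slc38a7 (log2 change 0.29, adjusted p = 0.00541) and its relative Slc38a6 (log2 change 0.22, adjusted p = 0.0435) also rose with 15d-PGJ2-PC, and Slc38a7 (log2 change 0.45, adjusted p = 0.000142), Slc36a4 (log2 change 0.64, adjusted p = 0.00293) and Slc38a1 (log2 change 0.17, adjusted p = 0.0281) rose with 15d-PGJ2. The neutral amino acid exchanger Slc7a8 (log2 change −0.20, adjusted p = 0.03) fell with 15d-PGJ2-PC and likewise with 15d-PGJ2 (log2 change −0.20, SE 0.06, adjusted p = 0.0154). Slc38a7 passed between the treatments with quantile normalization (0.0426), range 0.0426 to 0.244. The Slc38a6 call with 15d-PGJ2-PC was lost without 15d-PGJ2-PC replicate 1 (0.15) or 2 (0.0638) or 3 (0.0568), without 15d-PGJ2 replicate 1 (0.0558) or 2 (0.0577) or 3 (0.0594), without control replicate 2 (0.143) or 3 (0.109), with no filter (0.0568), in a fit of the libraries compared alone (0.0771) or with quantile normalization (0.06), range 0.0258 to 0.15. Slc38a6 passed with 15d-PGJ2 without control replicate 1 (0.0365), range 0.0365 to 0.222. Slc36a4 passed with 15d-PGJ2-PC without 15d-PGJ2-PC replicate 3 (0.0333), range 0.0333 to 0.517. Slc36a4 passed between the treatments without 15d-PGJ2-PC replicate 1 (0.0196), range 0.0196 to 0.244. The Slc38a1 call with 15d-PGJ2 was lost without 15d-PGJ2 replicate 2 (0.0773) or 3 (0.0644) or without control replicate 1 (0.0726) or 2 (0.0965), range 0.0209 to 0.0965. The Slc7a8 call with 15d-PGJ2-PC was lost without 15d-PGJ2-PC replicate 1 (0.0931) or 2 (0.0811), without control replicate 1 (0.0582) or 2 (0.0579) or 3 (0.0918), without the intensity trend (0.0508) or with quantile normalization (0.0525), range 0.0166 to 0.0931. The Slc7a8 call with 15d-PGJ2 was lost without 15d-PGJ2 replicate 3 (0.0631), without control replicate 3 (0.052) or with quantile normalization (0.0536), range 0.00459 to 0.0631.

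The start regions of 4 of these genes are shown to set letters beside the changes, 250 bases before the start to 50 after it, from RefSeq on GRCm38.p6, each read 5′ to 3′ on the gene's strand. In the first pair capitals mark TGACNNNGC, the core of the antioxidant response element that Nrf2 family proteins bind, and in the second pair TGATGNAA, the composite element known for ATF4, a factor of amino acid shortage; both strands were searched, and the match in Slc1a4 is on the opposite strand. The windows are Slc6a9 (chr4:117849100-117849399, plus strand), Slc38a2 (chr15:96699679-96699978, minus strand), Slc1a4 (chr11:20332664-20332963, minus strand) and Slc7a7 (chr14:54417895-54418194, minus strand). Slc6a9 and Slc7a7 have further windows at other starts.
Slc6a9: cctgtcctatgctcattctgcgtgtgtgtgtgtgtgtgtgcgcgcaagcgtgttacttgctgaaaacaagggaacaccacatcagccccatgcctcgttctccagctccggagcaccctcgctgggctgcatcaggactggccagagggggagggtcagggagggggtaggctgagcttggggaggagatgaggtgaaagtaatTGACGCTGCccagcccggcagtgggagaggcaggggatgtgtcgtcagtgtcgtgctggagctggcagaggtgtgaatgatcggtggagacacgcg
Slc38a2: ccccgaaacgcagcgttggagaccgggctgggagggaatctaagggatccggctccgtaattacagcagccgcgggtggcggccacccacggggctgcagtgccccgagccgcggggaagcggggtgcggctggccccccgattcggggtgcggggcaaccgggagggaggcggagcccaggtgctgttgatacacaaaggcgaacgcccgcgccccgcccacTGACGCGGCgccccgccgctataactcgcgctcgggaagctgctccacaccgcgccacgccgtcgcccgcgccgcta
Slc1a4: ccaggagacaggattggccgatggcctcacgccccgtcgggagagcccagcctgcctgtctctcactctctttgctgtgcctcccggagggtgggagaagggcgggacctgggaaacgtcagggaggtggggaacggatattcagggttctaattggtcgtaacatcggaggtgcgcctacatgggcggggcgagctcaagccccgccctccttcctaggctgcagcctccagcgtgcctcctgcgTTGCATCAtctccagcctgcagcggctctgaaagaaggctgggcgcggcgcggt
Slc7a7: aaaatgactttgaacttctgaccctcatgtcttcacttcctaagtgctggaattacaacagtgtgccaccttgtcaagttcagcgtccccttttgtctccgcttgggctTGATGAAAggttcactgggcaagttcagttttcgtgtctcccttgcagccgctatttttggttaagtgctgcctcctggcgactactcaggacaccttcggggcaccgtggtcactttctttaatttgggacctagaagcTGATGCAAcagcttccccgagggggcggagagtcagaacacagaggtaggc
Windows were found for 110 of the 145 members, and 23 of these (20.9%) hold the antioxidant core, beside 17.2% of 9022 tested genes with a window and 12.4% of all 32851 windows. By call with 15d-PGJ2 over the members that keep the level filter, the core was in 6 of 23 that rose, 6 of 30 that fell and 11 of 49 that did not pass. The ATF4 element was in 4 members (3.64%, against 2.83% of tested genes): Slc1a4, which rose with 15d-PGJ2, Slc7a7 and Slc50a1, which fell, and Slc9a9, which did not pass. Slc9a9 passed with 15d-PGJ2 without 15d-PGJ2-PC replicate 2 (0.0455) or 3 (0.0497), without 15d-PGJ2 replicate 3 (0.0452) or with a filter of 5 FPKM (0.0446), range 0.0446 to 0.197. A match is a run of letters, not a bound site.

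**Figure D3:**
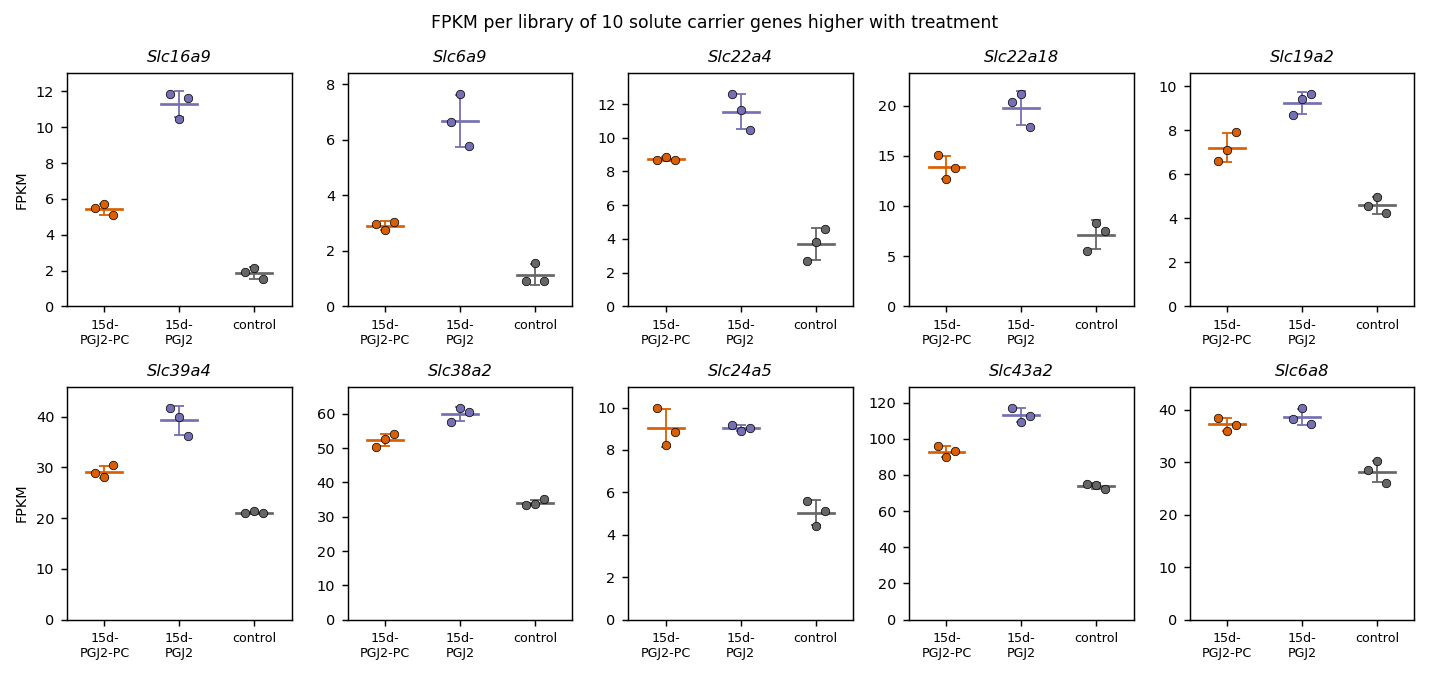
FPKM in each of the 9 libraries (points) for 10 members that rose with at least 1 treatment, 1 panel per gene, linear axes from 0, with lines at the group means and bars of 1 SD. In Slc16a9, Slc6a9 and Slc22a18 the libraries run from high with 15d-PGJ2, through 15d-PGJ2-PC, to low in control without overlap, while in Slc24a5 and Slc6a8 the 2 treatments share one range.

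The largest rise of all members was in a scarce carboxylate carrier. Of 6 members, 1 rose and 2 fell with 15d-PGJ2-PC, 2 rose and 1 fell with 15d-PGJ2, and 0 stood higher and 3 lower with 15d-PGJ2-PC than with 15d-PGJ2. Each comparison thus called 50% of the class, beside 27.8%, 47.2% and 20.6% of all genes in the same order. Slc16a9, a monocarboxylate transporter reported to carry carnitine in human cells, had 5.47, 5.69 and 5.1 FPKM with 15d-PGJ2-PC, 11.8, 10.5 and 11.6 FPKM with 15d-PGJ2, and 1.94, 2.16 and 1.51 FPKM in control. All 3 groups were apart, 15d-PGJ2 being the highest. Treatment with 15d-PGJ2-PC gave 2.90 times the control mean (log2 change 1.17, SE 0.10, adjusted p = 1.38e-05) and 15d-PGJ2 gave 6.05 times that mean (log2 change 2.11, SE 0.10, adjusted p = 4.93e-08), with 15d-PGJ2-PC below 15d-PGJ2 (log2 difference −0.94, SE 0.10, adjusted p = 0.000105). Slc16a6, a relative that carries ketone bodies in zebrafish liver, had 13.9, 15.2 and 15.3 FPKM with 15d-PGJ2-PC, 22.4, 23.8 and 24 FPKM with 15d-PGJ2, and 15.2, 15.3 and 16.2 FPKM in control. Its 15d-PGJ2 libraries lay above the others, which overlapped. Slc16a6 rose with 15d-PGJ2 (log2 change 0.56, SE 0.06, adjusted p = 1.94e-05) but gave no detectable change with 15d-PGJ2-PC (log2 change −0.07, 95% interval −0.20 to 0.07, adjusted p = 0.466), and the treatments differed (log2 difference −0.63, SE 0.06, adjusted p = 4.27e-05). The opposite-strand gene Amz2 shares 13.5% of its exon bases and had a mean of 12.3 FPKM with 15d-PGJ2-PC, 12.4 with 15d-PGJ2 and 12.5 in control. Slc16a7, the high-affinity pyruvate and lactate carrier, had 2.45, 3.65 and 2.91 FPKM with 15d-PGJ2-PC, 1.34, 1.65 and 2.69 FPKM with 15d-PGJ2, and 4.19, 2.89 and 3.79 FPKM in control, so that 15d-PGJ2 lay below control. It fell with 15d-PGJ2 (log2 change −0.69, SE 0.19, adjusted p = 0.0109), and for 15d-PGJ2-PC the change was not detectable (log2 change −0.21, 95% interval −0.62 to 0.21, adjusted p = 0.455). Slc16a7 passed between the treatments without 15d-PGJ2 replicate 3 (0.0255), range 0.0255 to 0.269.

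Slc13a3, which takes up succinate and other dicarboxylates with sodium, was the most abundant of all members, at 689, 651 and 668 FPKM with 15d-PGJ2-PC, 750.5, 726 and 771 FPKM with 15d-PGJ2, and 767, 760.2 and 785 FPKM in control. The 15d-PGJ2-PC libraries lay below every other library, while those of 15d-PGJ2 and control overlapped. Slc13a3 fell with 15d-PGJ2-PC (log2 change −0.20, SE 0.03, adjusted p = 0.000732) and was lower there than with 15d-PGJ2 (log2 difference −0.16, SE 0.03, adjusted p = 0.0045); 15d-PGJ2 itself gave no detectable change (log2 change −0.04, 95% interval −0.11 to 0.03, adjusted p = 0.318). The Slc13a3 call between the treatments was lost without the intensity trend (0.0504) or with quantile normalization (0.0847), range 0.00305 to 0.0847. The aromatic amino acid carrier of the Slc16 family, Slc16a10 (log2 change −0.20, adjusted p = 0.0235), also fell with 15d-PGJ2-PC. It was left with its family, so it is counted here and not among the amino acid carriers. The Slc16a10 call with 15d-PGJ2-PC was lost without 15d-PGJ2-PC replicate 1 (0.0647) or 3 (0.0862) or without control replicate 1 (0.0822) or 2 (0.0522), range 0.0183 to 0.0862.

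Carriers of organic ions, bile acids and urea held 2 of the strongest rises and the deepest fall. Of 8 members, 3 rose and 0 fell with 15d-PGJ2-PC, 3 rose and 2 fell with 15d-PGJ2, and 1 stood higher and 1 lower with 15d-PGJ2-PC than with 15d-PGJ2. In the same order 37.5%, 62.5% and 25% of the class were called, beside 27.8%, 47.2% and 20.6% of all genes. Slc22a4, known as the carrier of the antioxidant ergothioneine, had 8.66, 8.85 and 8.7 FPKM with 15d-PGJ2-PC, 12.6, 11.6 and 10.4 FPKM with 15d-PGJ2, and 2.68, 3.84 and 4.58 FPKM in control. Treated libraries all lay above control, and those of 15d-PGJ2 above those of 15d-PGJ2-PC. Slc22a4 rose with 15d-PGJ2-PC (log2 change 1.07, SE 0.13, adjusted p = 0.000161) and with 15d-PGJ2 (log2 change 1.43, SE 0.13, adjusted p = 7.29e-06), and the direct difference missed the threshold (log2 difference −0.36, 95% interval −0.66 to −0.07, adjusted p = 0.0857). Slc22a4 passed between the treatments without control replicate 1 (0.0184) or 3 (0.0443) or in a fit of the libraries compared alone (0.0186), range 0.0184 to 0.212. Of its neighbours on chromosome 11, Slc22a21, 2782 bases away, did not pass with either treatment, and the carnitine carrier Slc22a5 (log2 change −0.31, adjusted p = 0.0273) fell with 15d-PGJ2. The Slc22a5 call with 15d-PGJ2 was lost without 15d-PGJ2 replicate 2 (0.102), without control replicate 1 (0.0789) or 2 (0.0934) or with no filter (0.0523), range 0.0214 to 0.102. Slc22a18, an organic cation carrier-like gene of an imprinted region, had 15, 12.7 and 13.8 FPKM with 15d-PGJ2-PC, 20.3, 21.1 and 17.8 FPKM with 15d-PGJ2, and 5.56, 8.34 and 7.53 FPKM in control. Its 3 groups did not overlap. Slc22a18 rose with 15d-PGJ2-PC (log2 change 0.88, SE 0.12, adjusted p = 0.000368) and more with 15d-PGJ2 (log2 change 1.36, SE 0.12, adjusted p = 5.86e-06), the direct difference being past the threshold (log2 difference −0.48, SE 0.12, adjusted p = 0.019). The Slc22a18 call between the treatments was lost without 15d-PGJ2-PC replicate 2 (0.0721) or 3 (0.0511) or without 15d-PGJ2 replicate 1 (0.0576) or 2 (0.0704), range 0.00394 to 0.0721. Slc10a7, a member of the bile acid family linked to calcium balance, rose with 15d-PGJ2-PC (log2 change 0.39, SE 0.12, adjusted p = 0.0339) and with 15d-PGJ2 (log2 change 0.47, SE 0.12, adjusted p = 0.00822). The Slc10a7 call with 15d-PGJ2-PC was lost without 15d-PGJ2-PC replicate 1 (0.118) or 3 (0.0649), without control replicate 2 (0.124) or 3 (0.0773) or with no filter (0.0711), range 0.0127 to 0.124.

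Slc14a1, the urea transporter of red cells that carries the Kidd antigen, had 6.31, 5.1 and 5.98 FPKM with 15d-PGJ2-PC, 3.82, 2.2 and 2.32 FPKM with 15d-PGJ2, and 9.4, 7.3 and 8.17 FPKM in control. All 15d-PGJ2 libraries lay under all 15d-PGJ2-PC libraries, and these under control. It fell with 15d-PGJ2 (log2 change −1.32, SE 0.16, adjusted p = 4.87e-05) and was higher with 15d-PGJ2-PC than with 15d-PGJ2 (log2 difference 0.87, SE 0.16, adjusted p = 0.00289); with 15d-PGJ2-PC the change from control missed the threshold (log2 change −0.45, 95% interval −0.80 to −0.10, adjusted p = 0.0574). Slc14a1 passed with 15d-PGJ2-PC without 15d-PGJ2 replicate 1 (0.0134), with a filter of 5 FPKM (0.0497), in a fit of the libraries compared alone (0.0185) or with quantile normalization (0.0473), range 0.0134 to 0.179. Erythroid marker sums were low in both treatments and highest in control, as given above, but among the markers only globins followed that pattern. Hba-a1 had 22.39, 12.56 and 14.32 FPKM in control and at most 0.67 in treated libraries. Ermap had 0.38, 1.14 and 0.52 FPKM with 15d-PGJ2-PC, 0.56, 0.59 and 0.86 with 15d-PGJ2, and 0.66, 0.66 and 0.43 in control. Klf1 and Alas2 were at most 0.24 FPKM in any library. The sums were lower with 15d-PGJ2-PC than with 15d-PGJ2, whereas Slc14a1 was higher. The part of these markers in the fall was not tested. Slc17a5, the lysosomal sialic acid exporter, was the most abundant of the class and had 15.9, 16.4 and 13.3 FPKM with 15d-PGJ2-PC, 13.8, 14.5 and 14.8 FPKM with 15d-PGJ2, and 15.9, 15.9 and 14.3 FPKM in control. The groups overlapped, with log2 intervals of −0.20 to 0.16 with 15d-PGJ2-PC and −0.27 to 0.09 with 15d-PGJ2.

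The concentrative and the lysosomal nucleoside carriers fell with both treatments. Of 5 members, 0 rose and 2 fell with 15d-PGJ2-PC, 1 rose and 2 fell with 15d-PGJ2, and 2 stood higher and 1 lower with 15d-PGJ2-PC than with 15d-PGJ2, and the class sum was 102 ± 4.36 FPKM with 15d-PGJ2-PC, 98.2 ± 1.79 with 15d-PGJ2 and 126 ± 2.12 in control. Calls covered 40%, 60% and 60% of the class in that order of comparisons, beside 27.8%, 47.2% and 20.6% of all genes. Slc28a2, the sodium-driven carrier that concentrates purine nucleosides, had 20.7, 19.3 and 22.8 FPKM with 15d-PGJ2-PC, 14.6, 16.3 and 16.8 FPKM with 15d-PGJ2, and 35.5, 37.4 and 38.2 FPKM in control. Control lay far above both treatments, and 15d-PGJ2-PC above 15d-PGJ2. Slc28a2 fell with 15d-PGJ2-PC (log2 change −0.80, SE 0.07, adjusted p = 1.63e-05), the deepest fall of any member with that compound, and with 15d-PGJ2 (log2 change −1.17, SE 0.07, adjusted p = 2.58e-07); the treatments differed (log2 difference 0.38, SE 0.07, adjusted p = 0.0038). Slc29a3, which exports nucleosides from lysosomes, had 22.4, 19.5 and 19.6 FPKM with 15d-PGJ2-PC, 16.2, 13.4 and 13.3 FPKM with 15d-PGJ2, and 27.4, 25.9 and 26.6 FPKM in control. Again no groups overlapped. Slc29a3 fell with 15d-PGJ2-PC (log2 change −0.36, SE 0.08, adjusted p = 0.00707) and with 15d-PGJ2 (log2 change −0.86, SE 0.08, adjusted p = 8.45e-06), and was higher with 15d-PGJ2-PC than with 15d-PGJ2 (log2 difference 0.50, SE 0.08, adjusted p = 0.00167). Slc29a1, the equilibrative carrier of the plasma membrane, had 53, 50.6 and 49.4 FPKM with 15d-PGJ2-PC, 59.9, 56.8 and 57.7 FPKM with 15d-PGJ2, and 52.1, 54.1 and 51.7 FPKM in control. Here 15d-PGJ2 was the highest group and the others overlapped: the rise with 15d-PGJ2 was small (log2 change 0.14, SE 0.04, adjusted p = 0.0205), 15d-PGJ2-PC gave no detectable change (log2 change −0.05, 95% interval −0.14 to 0.05, adjusted p = 0.489), and the treatments differed (log2 difference −0.19, SE 0.04, adjusted p = 0.0114). The Slc29a1 call with 15d-PGJ2 was lost without 15d-PGJ2 replicate 1 (0.0693) or without control replicate 1 (0.0572) or 3 (0.0565), range 0.0016 to 0.0693.

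**Figure D4:**
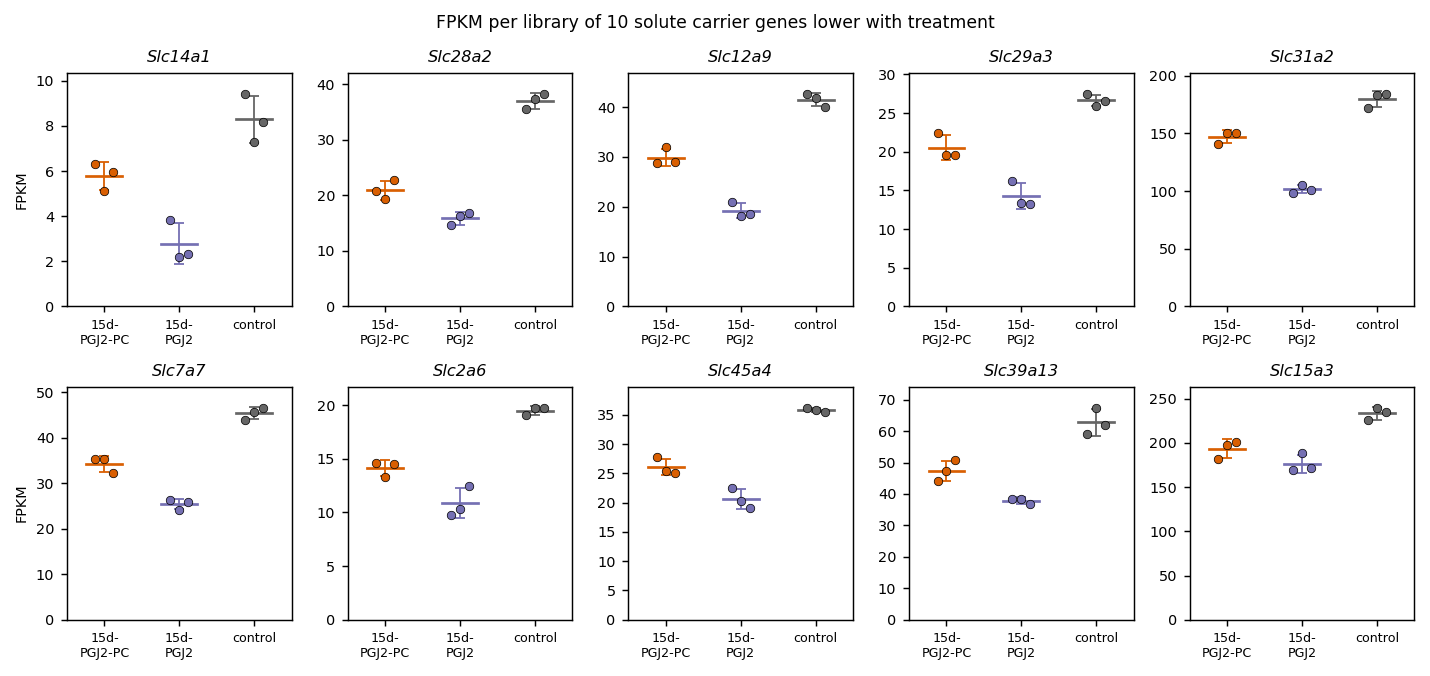
FPKM in each of the 9 libraries (points) for 10 members that fell with at least 1 treatment, 1 panel per gene, linear axes from 0, with lines at the group means and bars of 1 SD. Control is the highest group in every panel and 15d-PGJ2 the lowest mean; in Slc28a2, Slc12a9, Slc29a3 and Slc7a7 all 3 groups are apart.

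Sugar carriers called against control all fell, among the members that keep the filter without any 1 group. Slc5a3, of the same class but set aside by that rule, was higher in every treated library than in control, a difference that the filter partly set, as described at the end. Of 10 members, 0 rose and 2 fell with 15d-PGJ2-PC, 0 rose and 6 fell with 15d-PGJ2, and 6 stood higher and 0 lower with 15d-PGJ2-PC than with 15d-PGJ2. With 15d-PGJ2-PC 20% were called, fewer than the 27.8% of all genes. With 15d-PGJ2 it was 60%, beside 47.2% of all genes, and between the treatments 60%, beside 20.6%. The median log2 change was −0.04 with 15d-PGJ2-PC and −0.24 with 15d-PGJ2, and the class sum was 156 ± 4.07 FPKM with 15d-PGJ2-PC, 131 ± 2.82 with 15d-PGJ2 and 169 ± 1.53 in control. Slc2a6, a glucose transporter relative of lysosomal membranes in macrophages, had 14.6, 13.3 and 14.5 FPKM with 15d-PGJ2-PC, 9.8, 10.3 and 12.5 FPKM with 15d-PGJ2, and 19.1, 19.7 and 19.8 FPKM in control. The groups stood apart with control highest. Slc2a6 fell with 15d-PGJ2-PC (log2 change −0.44, SE 0.08, adjusted p = 0.00251) and 15d-PGJ2 (log2 change −0.80, SE 0.08, adjusted p = 1.71e-05), and was higher with 15d-PGJ2-PC than with 15d-PGJ2 (log2 difference 0.36, SE 0.08, adjusted p = 0.0116). Slc45a4, of a family of proton-coupled sugar carriers, had 27.8, 25.4 and 25.1 FPKM with 15d-PGJ2-PC, 22.5, 20.3 and 19.1 FPKM with 15d-PGJ2, and 36.2, 35.8 and 35.5 FPKM in control. Its order was the same. Slc45a4 fell with 15d-PGJ2-PC (log2 change −0.44, SE 0.06, adjusted p = 0.000448) and 15d-PGJ2 (log2 change −0.77, SE 0.06, adjusted p = 2.97e-06), and again the treatments differed (log2 difference 0.33, SE 0.06, adjusted p = 0.00447).

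Slc37a2, a sugar-phosphate exchanger of the endoplasmic reticulum that is abundant in macrophages, had 61.4, 65.2 and 57.1 FPKM with 15d-PGJ2-PC, 52.6, 50.05 and 51.7 FPKM with 15d-PGJ2, and 56.8, 57.7 and 59.3 FPKM in control. The 15d-PGJ2 libraries lay below the other 6. It fell with 15d-PGJ2 (log2 change −0.17, SE 0.05, adjusted p = 0.0189), gave no detectable change with 15d-PGJ2-PC (log2 change 0.08, 95% interval −0.04 to 0.19, adjusted p = 0.307), and differed between the treatments (log2 difference 0.24, SE 0.05, adjusted p = 0.00623). The Slc37a2 call with 15d-PGJ2 was lost without 15d-PGJ2 replicate 2 (0.066), without control replicate 3 (0.0574) or with quantile normalization (0.154), range 0.00996 to 0.154. The related exchanger Slc37a1 was scarce, at 2.66, 3.95 and 2.45 FPKM with 15d-PGJ2-PC, 1.89, 1.66 and 1.97 FPKM with 15d-PGJ2, and 4.05, 3.53 and 3.31 FPKM in control. The 15d-PGJ2 libraries lay below the others, which overlapped. Slc37a1 fell with 15d-PGJ2 (log2 change −0.70, SE 0.14, adjusted p = 0.00219); with 15d-PGJ2-PC the change was not detectable (log2 change −0.22, 95% interval −0.54 to 0.10, adjusted p = 0.301), and the direct difference was near the threshold (log2 difference 0.48, SE 0.14, adjusted p = 0.0372). The Slc37a1 call between the treatments was lost without 15d-PGJ2-PC replicate 1 (0.0513) or 2 (0.116), without 15d-PGJ2 replicate 1 (0.0731) or 2 (0.112) or 3 (0.0667), without control replicate 2 (0.0535), with no filter (0.0822) or in a fit of the libraries compared alone (0.0706), range 0.0273 to 0.116. The urate carrier Slc2a9 (log2 change −0.30, adjusted p = 0.0131) and the Golgi sugar carrier Slc50a1 (log2 change −0.33, adjusted p = 0.000755) fell with 15d-PGJ2 too, and both were higher with 15d-PGJ2-PC than with 15d-PGJ2 (log2 difference 0.27, SE 0.08, adjusted p = 0.0486 for Slc2a9 and log2 difference 0.28, SE 0.06, adjusted p = 0.00592 for Slc50a1). The Slc2a9 call between the treatments was lost without 15d-PGJ2-PC replicate 1 (0.0938) or 2 (0.159) or 3 (0.0565), without 15d-PGJ2 replicate 1 (0.113) or 2 (0.14) or 3 (0.0505), without control replicate 1 (0.0602) or 2 (0.0583) or 3 (0.063), with no filter (0.0841), in a fit of the libraries compared alone (0.0795) or with quantile normalization (0.0607), range 0.0327 to 0.159. The window at the start of Slc37a1 (chr17:31295974-31296273, plus strand) is shown because it alone among the members' windows holds the interferon-stimulated response element, in capitals; 3.98% of tested genes hold it.
Slc37a1: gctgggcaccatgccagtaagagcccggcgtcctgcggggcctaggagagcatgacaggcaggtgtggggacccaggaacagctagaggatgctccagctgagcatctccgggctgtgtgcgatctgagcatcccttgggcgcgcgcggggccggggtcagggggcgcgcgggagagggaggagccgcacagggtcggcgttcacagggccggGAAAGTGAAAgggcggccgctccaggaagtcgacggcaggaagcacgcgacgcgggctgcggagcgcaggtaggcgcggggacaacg

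Carriers of nucleotide sugars, the largest class, supply the Golgi apparatus and endoplasmic reticulum with donors for glycosylation. The share called was 19.05% with 15d-PGJ2-PC and 42.9% with 15d-PGJ2, beside 27.8% and 47.2% of all genes. Between the treatments it was 4.76%, beside 20.6% of all genes. Of 21 members, 1 rose and 3 fell with 15d-PGJ2-PC, 3 rose and 6 fell with 15d-PGJ2, and 1 stood higher and 0 lower with 15d-PGJ2-PC than with 15d-PGJ2. Slc35f5, a family member of unsettled substrate, had 19.9, 20.7 and 19.3 FPKM with 15d-PGJ2-PC, 16.2, 20.2 and 17.2 FPKM with 15d-PGJ2, and 27.6, 28.8 and 30.5 FPKM in control. Control lay above both treatments, which overlapped. Slc35f5 fell with 15d-PGJ2-PC (log2 change −0.51, SE 0.08, adjusted p = 0.000605) and with 15d-PGJ2 (log2 change −0.67, SE 0.08, adjusted p = 3.96e-05). Slc35f5 passed between the treatments without 15d-PGJ2 replicate 2 (0.0329), range 0.0329 to 0.465. Slc35c2, a Golgi protein linked to fucosylation and the most abundant of the class, had 51.2, 54 and 50.8 FPKM with 15d-PGJ2-PC, 41, 41.9 and 42.9 FPKM with 15d-PGJ2, and 61.3, 60.0 and 55.7 FPKM in control. Its groups did not overlap. Slc35c2 fell with 15d-PGJ2-PC (log2 change −0.18, SE 0.05, adjusted p = 0.0175) and more with 15d-PGJ2 (log2 change −0.48, SE 0.05, adjusted p = 1.16e-05), with a direct difference past the threshold (log2 difference 0.30, SE 0.05, adjusted p = 0.00122). The Slc35c2 call with 15d-PGJ2-PC was lost without 15d-PGJ2-PC replicate 1 (0.0575) or 3 (0.0627), without control replicate 1 (0.0666) or 2 (0.0612) or with quantile normalization (0.063), range 0.00719 to 0.0666. Slc35a1, the CMP-sialic acid carrier of the Golgi, had 6.19, 6.74 and 5.78 FPKM with 15d-PGJ2-PC, 5.05, 4.03 and 5.51 FPKM with 15d-PGJ2, and 7.71, 7.41 and 8.6 FPKM in control. It fell with 15d-PGJ2 (log2 change −0.61, SE 0.11, adjusted p = 0.000867), the 15d-PGJ2-PC libraries lying between the other groups (log2 change −0.30, 95% interval −0.54 to −0.06, adjusted p = 0.0643). Slc35a1 passed with 15d-PGJ2-PC without 15d-PGJ2 replicate 2 (0.0321), in a fit of the libraries compared alone (0.0394) or with quantile normalization (0.0442), range 0.0321 to 0.185. Slc35a1 passed between the treatments without 15d-PGJ2 replicate 3 (0.0447), range 0.0447 to 0.218. Slc35e2, of unsettled substrate, had 4.6, 4.71 and 4.38 FPKM with 15d-PGJ2-PC, 4.78, 5.16 and 5.37 FPKM with 15d-PGJ2, and 2.77, 3.81 and 3.92 FPKM in control. Both treatments lay above control, and 15d-PGJ2 just above 15d-PGJ2-PC. Slc35e2 rose with 15d-PGJ2 (log2 change 0.45, SE 0.11, adjusted p = 0.00721). Slc35e2 passed with 15d-PGJ2-PC without control replicate 3 (0.0452), range 0.0452 to 0.183. Further falls with 15d-PGJ2 were those of the sulfate donor carrier Slc35b2 (log2 change −0.40, adjusted p = 0.000367), which also fell with 15d-PGJ2-PC (log2 change −0.26, SE 0.06, adjusted p = 0.0101), and of Slc35b4 (log2 change −0.30, adjusted p = 0.0119) and Slc35e1 (log2 change −0.22, adjusted p = 0.0215). The rises were those of Slc35f6 (log2 change 0.29, adjusted p = 0.00167) and Slc35g1 (log2 change 0.28, adjusted p = 0.00236), the first also with 15d-PGJ2-PC (log2 change 0.32, SE 0.06, adjusted p = 0.00153). The Slc35e1 call with 15d-PGJ2 was lost without 15d-PGJ2 replicate 1 (0.0664) or without control replicate 2 (0.0672), range 0.00698 to 0.0672. Slc35g1 passed with 15d-PGJ2-PC without 15d-PGJ2-PC replicate 3 (0.0353) or with a filter of 5 FPKM (0.042), range 0.0353 to 0.168.

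The peptide and histidine carriers of endosomes and lysosomes are known in macrophages for their place in pattern receptor signalling, and the abundant pair fell with 15d-PGJ2. Of 3 members, 0 rose and 1 fell with 15d-PGJ2-PC, 0 rose and 2 fell with 15d-PGJ2, and 1 stood higher and 0 lower with 15d-PGJ2-PC than with 15d-PGJ2. Over all genes, these comparisons called 27.8%, 47.2% and 20.6%. Slc15a3 had 182, 198 and 202 FPKM with 15d-PGJ2-PC, 169, 188 and 171 FPKM with 15d-PGJ2, and 226, 239.9 and 235 FPKM in control. Both treatments lay below control and overlapped one another. Slc15a3 fell with 15d-PGJ2-PC (log2 change −0.27, SE 0.05, adjusted p = 0.00279) and 15d-PGJ2 (log2 change −0.41, SE 0.05, adjusted p = 8.02e-05). Slc15a3 passed between the treatments without 15d-PGJ2-PC replicate 1 (0.0414) or without 15d-PGJ2 replicate 2 (0.0329), range 0.0329 to 0.248. Slc15a4 had 42.4, 40.8 and 42.1 FPKM with 15d-PGJ2-PC, 38.1, 36.9 and 34.7 FPKM with 15d-PGJ2, and 44.2, 47.1 and 44.4 FPKM in control, with the lowest 3 values from 15d-PGJ2. Slc15a4 fell with 15d-PGJ2 (log2 change −0.30, SE 0.05, adjusted p = 0.000471) and differed between the treatments (log2 difference 0.19, SE 0.05, adjusted p = 0.0203). The Slc15a4 call between the treatments was lost without 15d-PGJ2-PC replicate 1 (0.0674) or 3 (0.0598) or without 15d-PGJ2 replicate 3 (0.0789), range 0.0163 to 0.0789.

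Zinc and copper carriers divided by gene. Of 17 members, 1 rose and 3 fell with 15d-PGJ2-PC, 5 rose and 5 fell with 15d-PGJ2, and 4 stood higher and 4 lower with 15d-PGJ2-PC than with 15d-PGJ2, and the class sum was 493 ± 12.5 FPKM with 15d-PGJ2-PC, 451 ± 8.46 with 15d-PGJ2 and 543 ± 5.42 in control. Shares called in that order of comparisons were 23.5%, 58.8% and 47.1%, beside 27.8%, 47.2% and 20.6% of all genes. Slc31a2, an endosomal protein that shapes copper uptake by Slc31a1, made up 33.1% of the control sum and had 140.4, 151 and 150.5 FPKM with 15d-PGJ2-PC, 98.6, 106 and 101 FPKM with 15d-PGJ2, and 172, 184 and 184 FPKM in control. The groups were apart with control highest. It fell with 15d-PGJ2-PC (log2 change −0.29, SE 0.04, adjusted p = 0.000579) and more with 15d-PGJ2 (log2 change −0.82, SE 0.04, adjusted p = 9.13e-08), and the difference between the treatments was past the threshold (log2 difference 0.53, SE 0.04, adjusted p = 1.93e-05). Slc31a1, the copper importer 62171 bases from it on chromosome 4, fell with 15d-PGJ2 (log2 change −0.41, SE 0.07, adjusted p = 0.000544) and was higher with 15d-PGJ2-PC than with 15d-PGJ2 (log2 difference 0.24, SE 0.07, adjusted p = 0.0297). The Slc31a1 call between the treatments was lost without 15d-PGJ2-PC replicate 2 (0.107) or 3 (0.0721), without 15d-PGJ2 replicate 3 (0.106) or in a fit of the libraries compared alone (0.0509), range 0.0212 to 0.107.

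Slc39a1, a zinc importer of the plasma membrane, had 52.7, 48.8 and 51.4 FPKM with 15d-PGJ2-PC, 43, 40.0 and 41.5 FPKM with 15d-PGJ2, and 66.3, 65.8 and 65.1 FPKM in control. No 2 groups overlapped. Slc39a1 fell with 15d-PGJ2-PC (log2 change −0.36, SE 0.04, adjusted p = 0.000136) and 15d-PGJ2 (log2 change −0.65, SE 0.04, adjusted p = 5.93e-07), with a difference between them (log2 difference 0.29, SE 0.04, adjusted p = 0.000994). Slc39a13, a zinc carrier of intracellular vesicles that connective tissue depends on, had 44.1, 47.3 and 50.6 FPKM with 15d-PGJ2-PC, 38.5, 38.5 and 36.7 FPKM with 15d-PGJ2, and 59.1, 67.4 and 61.9 FPKM in control. The order of the groups was that of Slc39a1. Slc39a13 fell with 15d-PGJ2-PC (log2 change −0.40, SE 0.06, adjusted p = 0.000701) and 15d-PGJ2 (log2 change −0.71, SE 0.06, adjusted p = 4.21e-06), and the treatments differed (log2 difference 0.31, SE 0.06, adjusted p = 0.00493). Slc39a4, the zinc importer known from gut absorption and acrodermatitis, went up, at 28.8, 28.1 and 30.4 FPKM with 15d-PGJ2-PC, 41.7, 39.9 and 36.1 FPKM with 15d-PGJ2, and 20.9, 21.3 and 20.9 FPKM in control. Its groups did not overlap and 15d-PGJ2 was the highest. Slc39a4 rose with 15d-PGJ2-PC (log2 change 0.45, SE 0.06, adjusted p = 0.00022) and more with 15d-PGJ2 (log2 change 0.87, SE 0.06, adjusted p = 5.86e-07), the treatments differing (log2 difference −0.42, SE 0.06, adjusted p = 0.000571).

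Slc39a10, a zinc importer described in immune cells, had 2, 2.11 and 2.62 FPKM with 15d-PGJ2-PC, 3.58, 4.08 and 4.27 FPKM with 15d-PGJ2, and 2.4, 2.31 and 2.14 FPKM in control. The 15d-PGJ2 libraries lay above the 6 others. Slc39a10 rose with 15d-PGJ2 (log2 change 0.60, SE 0.11, adjusted p = 0.00122), with 15d-PGJ2-PC giving no detectable change (log2 change −0.02, 95% interval −0.27 to 0.23, adjusted p = 0.914) and a difference between the treatments (log2 difference −0.62, SE 0.11, adjusted p = 0.00281). Smaller rises with 15d-PGJ2 were those of the related importer Slc39a6 (log2 change 0.38, adjusted p = 0.000345), the endoplasmic reticulum zinc channel Slc39a7 (log2 change 0.26, adjusted p = 0.0019) and the secretory zinc carrier Slc30a5 (log2 change 0.13, adjusted p = 0.0311), while Slc30a7 (log2 change −0.20, adjusted p = 0.0321), of the Golgi, fell. Slc39a6 (log2 difference −0.22, SE 0.06, adjusted p = 0.0239) and Slc39a7 (log2 difference −0.18, SE 0.05, adjusted p = 0.0335) were lower with 15d-PGJ2-PC than with 15d-PGJ2. The Slc39a6 call between the treatments was lost without 15d-PGJ2-PC replicate 1 (0.0618) or 2 (0.0526) or 3 (0.0697) or without 15d-PGJ2 replicate 1 (0.0669) or 3 (0.0918), range 0.0148 to 0.0918. The Slc39a7 call between the treatments was lost without 15d-PGJ2-PC replicate 1 (0.119) or 2 (0.106), without 15d-PGJ2 replicate 2 (0.122) or 3 (0.0577), with no filter (0.0584), without the intensity trend (0.0811) or in a fit of the libraries compared alone (0.0559), range 0.0131 to 0.122. The Slc30a5 call with 15d-PGJ2 was lost without 15d-PGJ2 replicate 1 (0.0765) or 2 (0.0802), without control replicate 1 (0.0845) or 2 (0.092) or in a fit of the libraries compared alone (0.0599), range 0.00831 to 0.092. Slc30a5 passed between the treatments with quantile normalization (0.049), range 0.049 to 0.235. Slc30a7 passed with 15d-PGJ2-PC without 15d-PGJ2-PC replicate 2 (0.0396), range 0.0396 to 0.24. The Slc30a7 call with 15d-PGJ2 was lost without 15d-PGJ2 replicate 1 (0.0703) or 2 (0.0792) or 3 (0.057) or without control replicate 1 (0.1) or 2 (0.0587) or 3 (0.0525), range 0.0234 to 0.1. A readthrough gene on the same strand shares 84.5% of the exon bases of Slc39a7. The start window of Slc39a13 (chr2:91070266-91070565, minus strand) is shown as a member with the antioxidant core TGACNNNGC, in capitals at 2 places, that fell with both treatments.
Slc39a13: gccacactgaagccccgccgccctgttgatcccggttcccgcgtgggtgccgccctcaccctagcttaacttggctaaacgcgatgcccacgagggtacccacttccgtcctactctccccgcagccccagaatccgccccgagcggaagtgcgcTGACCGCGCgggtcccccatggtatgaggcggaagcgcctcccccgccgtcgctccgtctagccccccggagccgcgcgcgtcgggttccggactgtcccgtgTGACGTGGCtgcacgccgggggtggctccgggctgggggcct
The metal response core, TGCGCNC or TGCACNC on either strand, was in 52 of 110 members (47.3%) and in 39.9% of tested genes.

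**Figure D5:**
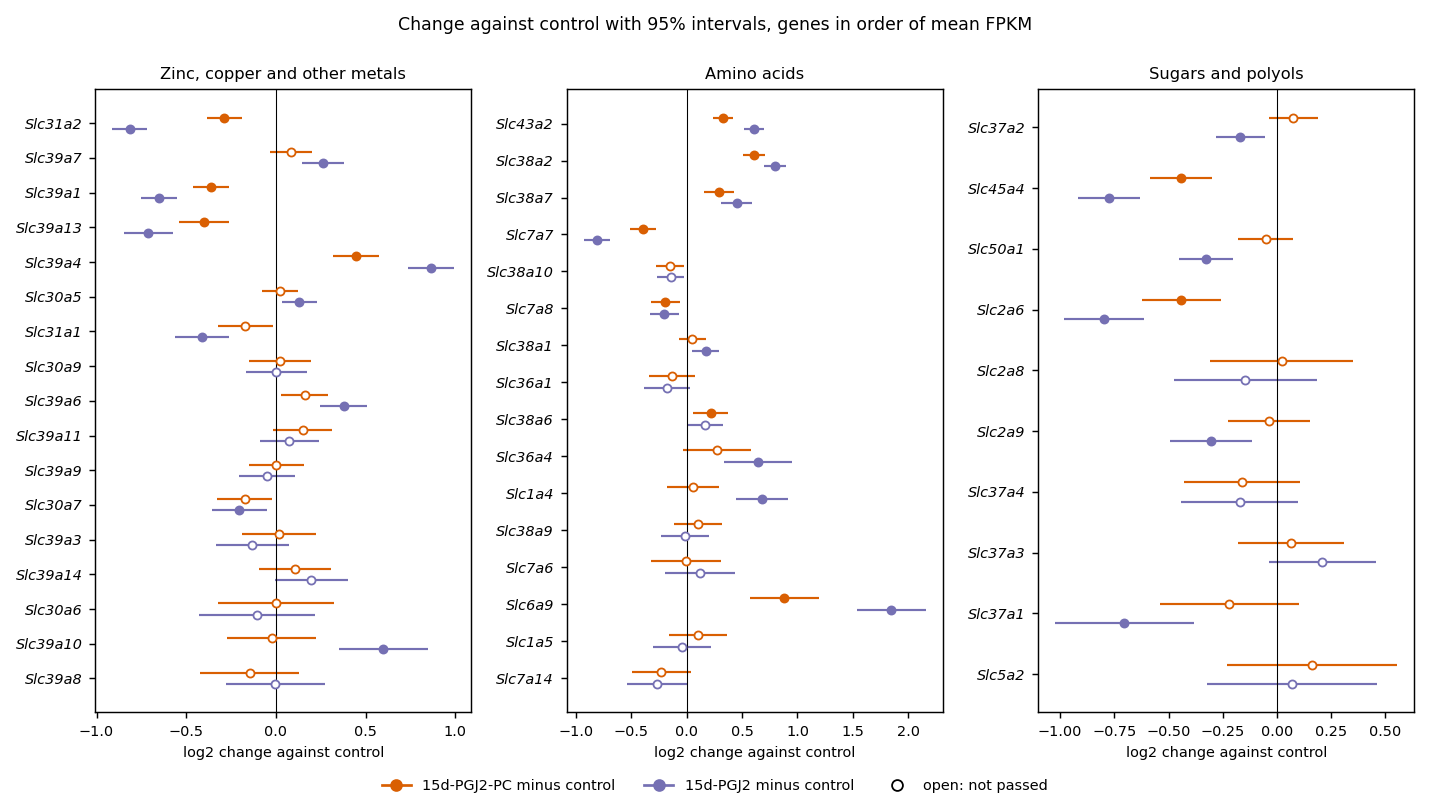
Log2 change against control with its 95% interval (horizontal axis, log2(FPKM + 1) scale) for metal, amino acid and sugar carriers that keep the filter without any 1 group, 1 panel per class and 1 row per gene, for 15d-PGJ2-PC and 15d-PGJ2. Slc39a4 lies right of 0 and Slc31a2, Slc39a1 and Slc39a13 left of it for both treatments, Slc6a9 lies farthest right among amino acid carriers, and no sugar carrier has an interval wholly right of 0.

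Among carriers of sodium, potassium, calcium, magnesium and protons, 10 of 19 passed in no comparison, beside 61 of all 134 members. How many of all genes passed in none was not counted, so these counts have no background to be read against. The class had 15.8% called with 15d-PGJ2-PC and 42.1% with 15d-PGJ2, beside 27.8% and 47.2% of all genes. Of 19 members, 2 rose and 1 fell with 15d-PGJ2-PC, 5 rose and 3 fell with 15d-PGJ2, and 2 stood higher and 1 lower with 15d-PGJ2-PC than with 15d-PGJ2. Slc12a9, an orphan of the cation-chloride cotransporters, had 28.8, 32 and 28.9 FPKM with 15d-PGJ2-PC, 21, 18.1 and 18.5 FPKM with 15d-PGJ2, and 42.6, 41.8 and 40.0 FPKM in control. All 3 groups were apart. It fell with 15d-PGJ2-PC (log2 change −0.46, SE 0.07, adjusted p = 0.000384) and over a wider span with 15d-PGJ2 (log2 change −1.07, SE 0.07, adjusted p = 2.5e-07), and was higher with 15d-PGJ2-PC than with 15d-PGJ2 (log2 difference 0.61, SE 0.07, adjusted p = 8.81e-05). Slc24a5, a potassium-dependent sodium and calcium exchanger known from pigment cells, had 9.99, 8.25 and 8.84 FPKM with 15d-PGJ2-PC, 9.18, 8.89 and 9.02 FPKM with 15d-PGJ2, and 5.59, 4.43 and 5.1 FPKM in control. The treatments shared one range above control. Slc24a5 rose with 15d-PGJ2-PC (log2 change 0.73, SE 0.09, adjusted p = 0.000173) and 15d-PGJ2 (log2 change 0.74, SE 0.09, adjusted p = 7.24e-05), and their direct difference was not detectable (log2 difference 0.00, 95% interval −0.21 to 0.20, adjusted p = 0.985). It shares 36.5% of its exon bases with opposite-strand Myef2, whose mean was 8.65 FPKM with 15d-PGJ2-PC, 6.15 with 15d-PGJ2 and 8.40 in control and which fell with 15d-PGJ2 (log2 change −0.39, adjusted p = 0.00585).

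Slc8b1, the sodium and calcium exchanger of the mitochondrial inner membrane and the most abundant of the class, had 89.7, 91.9 and 87.6 FPKM with 15d-PGJ2-PC, 74.7, 78.9 and 78.6 FPKM with 15d-PGJ2, and 81.4, 82.5 and 80.8 FPKM in control. The 15d-PGJ2-PC libraries were the highest. Slc8b1 rose with 15d-PGJ2-PC (log2 change 0.14, SE 0.04, adjusted p = 0.0201) and differed between the treatments (log2 difference 0.21, SE 0.04, adjusted p = 0.00247). The Slc8b1 call with 15d-PGJ2-PC was lost without 15d-PGJ2-PC replicate 1 (0.0543) or 2 (0.0771), without control replicate 1 (0.0526) or without the intensity trend (0.0676), range 0.00564 to 0.0771. Slc9a8, a sodium and proton exchanger of the Golgi and endosomes, had 10.9, 12 and 13.2 FPKM with 15d-PGJ2-PC, 13.4, 16 and 14.5 FPKM with 15d-PGJ2, and 11.2, 10.6 and 10.7 FPKM in control, highest with 15d-PGJ2. Slc9a8 rose with 15d-PGJ2 (log2 change 0.40, SE 0.08, adjusted p = 0.00234); its direct difference was close to the threshold (log2 difference −0.26, SE 0.08, adjusted p = 0.0494). The Slc9a8 call between the treatments was lost without 15d-PGJ2-PC replicate 1 (0.164) or 2 (0.111), without 15d-PGJ2 replicate 2 (0.171) or 3 (0.104), without control replicate 1 (0.0643) or 2 (0.0682) or 3 (0.0635), with no filter (0.0849), without the intensity trend (0.0616), in a fit of the libraries compared alone (0.0949) or with a pseudocount of 0.1 (0.05004), range 0.0305 to 0.171. Slc12a5, the potassium and chloride cotransporter best known in neurons, was scarce, at 1.59, 1.51 and 1.57 FPKM with 15d-PGJ2-PC, 2.25, 1.97 and 2.11 FPKM with 15d-PGJ2, and 1.23, 1.62 and 1.45 FPKM in control. Its 15d-PGJ2 libraries lay above the overlapping rest. Slc12a5 rose with 15d-PGJ2 (log2 change 0.36, SE 0.11, adjusted p = 0.026). The Slc12a5 call with 15d-PGJ2 was lost without 15d-PGJ2 replicate 1 (0.0775) or 3 (0.0612) or without control replicate 1 (0.0847) or 3 (0.0516), range 0.00283 to 0.0847. Slc12a5 passed between the treatments without the intensity trend (0.0229), range 0.0229 to 0.243. The magnesium carrier Slc41a2 (log2 change 0.35, adjusted p = 0.0127) rose with 15d-PGJ2, while Slc9a7 (log2 change −0.31, adjusted p = 0.0208) and Slc12a7 (log2 change −0.18, adjusted p = 0.0101) fell. The Slc9a7 call with 15d-PGJ2 was lost without 15d-PGJ2 replicate 1 (0.0649) or without control replicate 1 (0.0741) or 2 (0.0733), range 0.0101 to 0.0741. Of the 2 phosphate carriers, Slc20a1, the sodium-coupled importer, had 18.9, 19.2 and 20.6 FPKM with 15d-PGJ2-PC, 19.8, 23.2 and 22.2 FPKM with 15d-PGJ2, and 15.7, 16.9 and 15.9 FPKM in control. Both treatments lay above control and overlapped. It rose with 15d-PGJ2-PC (log2 change 0.26, SE 0.07, adjusted p = 0.0168) and 15d-PGJ2 (log2 change 0.40, SE 0.07, adjusted p = 0.000646), while Slc20a2 passed with neither. The Slc20a1 call with 15d-PGJ2-PC was lost without 15d-PGJ2-PC replicate 3 (0.0652) or without control replicate 1 (0.0582), range 0.00913 to 0.0652.

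Carriers of taurine, creatine and neurotransmitters had opposite changes in their abundant members. Of 4 members, 1 rose and 1 fell with 15d-PGJ2-PC, 2 rose and 1 fell with 15d-PGJ2, and 1 stood higher and 0 lower with 15d-PGJ2-PC than with 15d-PGJ2. Among all genes 27.8%, 47.2% and 20.6% were called in these comparisons. Slc6a6, the taurine importer, had 187, 187 and 182 FPKM with 15d-PGJ2-PC, 166, 156 and 161 FPKM with 15d-PGJ2, and 197, 202 and 201 FPKM in control. No groups overlapped, with control highest. It fell a little with 15d-PGJ2-PC (log2 change −0.11, SE 0.03, adjusted p = 0.0342) and more with 15d-PGJ2 (log2 change −0.31, SE 0.03, adjusted p = 2.21e-05), and the treatments differed (log2 difference 0.20, SE 0.03, adjusted p = 0.00167). The Slc6a6 call with 15d-PGJ2-PC was lost without 15d-PGJ2-PC replicate 1 (0.0712) or 2 (0.0638) or 3 (0.11), without 15d-PGJ2 replicate 3 (0.0506), without control replicate 1 (0.0503) or 2 (0.0988) or 3 (0.068) or without the intensity trend (0.132), range 0.0159 to 0.132. Slc6a8, the creatine importer, had 38.5, 36 and 37.2 FPKM with 15d-PGJ2-PC, 38.2, 40.4 and 37.3 FPKM with 15d-PGJ2, and 28.5, 30.2 and 26 FPKM in control. Treated libraries lay above control and overlapped. Slc6a8 rose with 15d-PGJ2-PC (log2 change 0.39, SE 0.06, adjusted p = 0.000679) and 15d-PGJ2 (log2 change 0.44, SE 0.06, adjusted p = 0.000132). The vesicular monoamine carrier Slc18a1 (log2 change 0.30, adjusted p = 0.0438) passed with 15d-PGJ2 although its libraries overlapped those of control. The Slc18a1 call with 15d-PGJ2 was lost without 15d-PGJ2-PC replicate 1 (0.0565) or 2 (0.0578) or 3 (0.0552), without 15d-PGJ2 replicate 1 (0.0921) or 3 (0.155), without control replicate 1 (0.143) or 2 (0.105), with no filter (0.0814) or in a fit of the libraries compared alone (0.0737), range 0.0236 to 0.155.

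Vitamin carriers changed in single genes. Of 7 members, 1 rose and 0 fell with 15d-PGJ2-PC, 1 rose and 1 fell with 15d-PGJ2, and 2 stood higher and 1 lower with 15d-PGJ2-PC than with 15d-PGJ2. In this order 14.3%, 28.6% and 42.9% of the class were called, beside 27.8%, 47.2% and 20.6% of all genes. Slc19a2, the thiamine importer, had 6.61, 7.11 and 7.91 FPKM with 15d-PGJ2-PC, 8.67, 9.43 and 9.62 FPKM with 15d-PGJ2, and 4.57, 4.96 and 4.22 FPKM in control. Its groups stood apart, 15d-PGJ2 above 15d-PGJ2-PC and both above control. Slc19a2 rose with 15d-PGJ2-PC (log2 change 0.56, SE 0.09, adjusted p = 0.000814) and 15d-PGJ2 (log2 change 0.88, SE 0.09, adjusted p = 1.29e-05), with a direct difference past the threshold (log2 difference −0.32, SE 0.09, adjusted p = 0.0264). The Slc19a2 call between the treatments was lost without 15d-PGJ2-PC replicate 1 (0.0954) or 2 (0.0739), without 15d-PGJ2 replicate 2 (0.0803) or 3 (0.0878) or with no filter (0.0506), range 0.02 to 0.0954. Slc46a1, the proton-coupled folate importer, had 7.34, 6.36 and 6.57 FPKM with 15d-PGJ2-PC, 5.27, 4.4 and 4.83 FPKM with 15d-PGJ2, and 6.92, 7.24 and 7.63 FPKM in control. The 15d-PGJ2 libraries were the lowest. Slc46a1 fell with 15d-PGJ2 (log2 change −0.50, SE 0.09, adjusted p = 0.000743), gave no detectable change with 15d-PGJ2-PC (log2 change −0.09, 95% interval −0.29 to 0.10, adjusted p = 0.482), and differed between the treatments (log2 difference 0.41, SE 0.09, adjusted p = 0.00701). Slc23a2, the sodium-coupled ascorbate importer, had 25.9, 24.3 and 25.1 FPKM with 15d-PGJ2-PC, 21.4, 21.1 and 22.5 FPKM with 15d-PGJ2, and 22.6, 22.2 and 24 FPKM in control. The 15d-PGJ2-PC libraries lay above the others. It passed only in the direct comparison, being higher with 15d-PGJ2-PC than with 15d-PGJ2 (log2 difference 0.20, SE 0.05, adjusted p = 0.0207). The Slc23a2 call between the treatments was lost without 15d-PGJ2-PC replicate 1 (0.0777) or 3 (0.0546) or without 15d-PGJ2 replicate 1 (0.0564) or 2 (0.0728), range 0.0154 to 0.0777.

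The remaining classes held small changes. Of 4 members of the fatty acid and choline class, 1 rose and 1 fell with 15d-PGJ2-PC, 0 rose and 2 fell with 15d-PGJ2, and 1 stood higher and 0 lower with 15d-PGJ2-PC than with 15d-PGJ2. The same comparisons called 27.8%, 47.2% and 20.6% of all genes. Slc44a2, a choline transporter-like protein, had 37, 32.8 and 33.8 FPKM with 15d-PGJ2-PC, 31, 30.8 and 31.2 FPKM with 15d-PGJ2, and 41, 39.6 and 39 FPKM in control. The groups did not overlap, control being the highest. Slc44a2 fell with 15d-PGJ2-PC (log2 change −0.20, SE 0.05, adjusted p = 0.0136) and 15d-PGJ2 (log2 change −0.35, SE 0.05, adjusted p = 0.000229). The Slc44a2 call with 15d-PGJ2-PC was lost without 15d-PGJ2-PC replicate 2 (0.0556) or without control replicate 1 (0.0513), range 0.00481 to 0.0556. Slc44a1, its relative and the main choline carrier of the family, had 10.4, 9.52 and 7.78 FPKM with 15d-PGJ2-PC, 7.28, 6.41 and 8.24 FPKM with 15d-PGJ2, and 8.4, 10.7 and 11.9 FPKM in control. All 15d-PGJ2 libraries lay below control, and 15d-PGJ2-PC overlapped both. It fell with 15d-PGJ2 (log2 change −0.44, SE 0.14, adjusted p = 0.0217). The Slc44a1 call with 15d-PGJ2 was lost without 15d-PGJ2 replicate 1 (0.0503) or 2 (0.0803) or without control replicate 2 (0.0668) or 3 (0.0849), range 0.00663 to 0.0849. Slc27a1, a fatty acid transport protein, had 36.9, 41.1 and 36.5 FPKM with 15d-PGJ2-PC, 29.6, 27.3 and 32.2 FPKM with 15d-PGJ2, and 30.2, 33.4 and 32 FPKM in control, highest with 15d-PGJ2-PC. Slc27a1 rose with 15d-PGJ2-PC (log2 change 0.25, SE 0.07, adjusted p = 0.022) and differed between the treatments (log2 difference 0.35, SE 0.07, adjusted p = 0.00512). The Slc27a1 call with 15d-PGJ2-PC was lost without 15d-PGJ2-PC replicate 2 (0.0846) or without control replicate 1 (0.08) or 3 (0.0507), range 0.0159 to 0.0846.

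Of 7 anion carriers, 0 rose and 0 fell with 15d-PGJ2-PC, 0 rose and 2 fell with 15d-PGJ2, and 1 stood higher and 0 lower with 15d-PGJ2-PC than with 15d-PGJ2. Calls thus made up 0%, 28.6% and 14.3% of the class, beside 27.8%, 47.2% and 20.6% of all genes. Slc26a2, the sulfate carrier that cartilage depends on, had 6.85, 6.96 and 6.43 FPKM with 15d-PGJ2-PC, 6.26, 6.23 and 4.79 FPKM with 15d-PGJ2, and 7.61, 7.53 and 7.79 FPKM in control. The 15d-PGJ2 libraries lay below the rest. Slc26a2 fell with 15d-PGJ2 (log2 change −0.36, SE 0.10, adjusted p = 0.00987). Slc4a2, the chloride and bicarbonate exchanger, had 15.7, 16.2 and 14.7 FPKM with 15d-PGJ2-PC, 13.3, 13 and 12.7 FPKM with 15d-PGJ2, and 14.7, 15.1 and 15.3 FPKM in control. The 15d-PGJ2 libraries were the lowest, while 15d-PGJ2-PC and control overlapped. Opposite-strand Fastk covers 14.9% of the exon bases of Slc4a2, with a mean of 24.75 FPKM with 15d-PGJ2-PC, 26.76 with 15d-PGJ2 and 24.14 in control. Slc4a2 fell with 15d-PGJ2 (log2 change −0.19, SE 0.06, adjusted p = 0.0164) and was higher with 15d-PGJ2-PC than with 15d-PGJ2 (log2 difference 0.24, SE 0.06, adjusted p = 0.0126). The Slc4a2 call with 15d-PGJ2 was lost without 15d-PGJ2 replicate 3 (0.0534), range 0.0129 to 0.0534. The Slc4a2 call between the treatments was lost without 15d-PGJ2-PC replicate 2 (0.0533), range 0.00884 to 0.0533.

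The remaining 11 members would miss the level filter if 1 of the groups were set aside, so their differences between groups are given as values without a test. Slc5a3, the sodium-coupled inositol importer that responds to osmotic stress, had 0.9, 1.19 and 1.43 FPKM with 15d-PGJ2-PC, 2.28, 2.23 and 2.75 FPKM with 15d-PGJ2, and 0.43, 0.69 and 0.42 FPKM in control. It shares 1.46% of its exon bases with Mrps6 on the same strand. The mean of Mrps6 was 13.89 FPKM with 15d-PGJ2-PC, 28.85 with 15d-PGJ2 and 9.83 in control, and its part in the Slc5a3 values was not tested. Slc16a5, a monocarboxylate transporter relative, had 1.6, 0.83 and 1.49 FPKM with 15d-PGJ2-PC, 2.32, 2.1 and 1.61 FPKM with 15d-PGJ2, and 0.47, 0.41 and 0.54 FPKM in control. Slc22a23, an orphan of the organic ion family, had 0.54, 0.54 and 0.32 FPKM with 15d-PGJ2-PC, 1.74, 1.44 and 1.38 FPKM with 15d-PGJ2, and 0.28, 0.37 and 0.4 FPKM in control. In Slc5a3, Slc16a5 and Slc22a23 every 15d-PGJ2 library lay above every control library, as in the next gene, Slc7a3. Each of these genes reaches the level filter only with its 15d-PGJ2 libraries counted, so the filter partly set this separation. Slc7a3, a cationic amino acid importer, had 0.47, 0.4 and 1.43 FPKM with 15d-PGJ2-PC, 1.11, 1.12 and 1.03 FPKM with 15d-PGJ2, and 0.23, 0.08 and 0.4 FPKM in control. Slc4a8, a sodium-driven bicarbonate exchanger, had 1.01, 1.01 and 0.77 FPKM with 15d-PGJ2-PC, 0.35, 0.53 and 0.42 FPKM with 15d-PGJ2, and 1.22, 1.29 and 1.45 FPKM in control. Slc5a5, the iodide importer of the thyroid, had 0.61, 1.71 and 1.1 FPKM with 15d-PGJ2-PC, 0.73, 0.55 and 0.25 FPKM with 15d-PGJ2, and 1.27, 1.22 and 1.65 FPKM in control. The 15d-PGJ2 libraries of Slc4a8 lay below all others, and those of Slc5a5 below control only. Both genes reach the filter only with their control libraries counted, which again partly set the difference. The other 5, Slc3a1, Slc27a3, Slc29a2, Slc2a3 and Slc30a4, had group means between 0.6 and 1.14 FPKM.

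Genes that carry the symbol without being carriers were 5. Slc9a3r1, a scaffold that ties exchangers to the cytoskeleton, had 39, 38 and 39.9 FPKM with 15d-PGJ2-PC, 35.2, 32.6 and 30.2 FPKM with 15d-PGJ2, and 59.3, 59.5 and 54.3 FPKM in control. Both treatments lay below control, 15d-PGJ2 the lowest. It fell with 15d-PGJ2-PC (log2 change −0.55, SE 0.06, adjusted p = 6.4e-05) and 15d-PGJ2 (log2 change −0.80, SE 0.06, adjusted p = 1.33e-06), and the treatments differed (log2 difference 0.25, SE 0.06, adjusted p = 0.0142). The Slc9a3r1 call between the treatments was lost without 15d-PGJ2-PC replicate 3 (0.0503) or without 15d-PGJ2 replicate 3 (0.054), range 0.00616 to 0.054. Slc7a6os, named for lying opposite Slc7a6, had 12.6, 12.4 and 17.2 FPKM with 15d-PGJ2-PC, 15.2, 14.9 and 16.3 FPKM with 15d-PGJ2, and 12.1, 10.9 and 8.46 FPKM in control. Treated libraries lay above control and shared one range. Slc7a6os rose with 15d-PGJ2 (log2 change 0.53, SE 0.14, adjusted p = 0.00912). Slc7a6os passed with 15d-PGJ2-PC without control replicate 1 (0.0361) or with a filter of 5 FPKM (0.0445), range 0.0361 to 0.199. Slc7a6 itself passed in no comparison, with 4.12, 3.75 and 3.43 FPKM with 15d-PGJ2-PC, 3.56, 4.71 and 4.39 FPKM with 15d-PGJ2, and 2.9, 4.59 and 4.04 FPKM in control.

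In all, 61 of the 134 members passed in no comparison, and the like share of all genes was not counted. Group-to-group log2 changes of these 61 lay between −0.38 and 0.50 for 15d-PGJ2-PC and between −0.36 and 0.34 for 15d-PGJ2. Their 95% intervals reached from −0.79 to 1.14 with 15d-PGJ2-PC and from −0.79 to 0.91 with 15d-PGJ2, so these libraries could miss changes within those bounds in a single gene. The widest belong to scarce genes such as Slc12a8, at 1.97, 2.39 and 1.32 FPKM with 15d-PGJ2-PC, 2.45, 0.89 and 1.25 FPKM with 15d-PGJ2, and 2.04, 0.71 and 0.58 FPKM in control. Among them were 12 nucleotide sugar carriers, 10 carriers of sodium and related ions, 7 of metals and 6 of amino acids, Slc1a5, the glutamine exchanger, and Slc36a1, the lysosomal proton-coupled carrier, included. Slc1a5 had 3.38, 4.05 and 3.27 FPKM with 15d-PGJ2-PC, 3.59, 2.9 and 2.94 FPKM with 15d-PGJ2, and 3.68, 2.86 and 3.26 FPKM in control, and Slc36a1 had 14.1, 11.1 and 12.8 FPKM with 15d-PGJ2-PC, 13.5, 11.3 and 11.9 FPKM with 15d-PGJ2, and 13, 14.5 and 14.3 FPKM in control. In both genes the 3 groups overlapped.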

How the data were processed

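RNA was sequenced from 9 libraries, 3 per group, made with Illumina's TruSeq RNA kit from Trizol extracts, per the labels' protocols. The authors deposited FPKM values for 18049 genes in a single table, per the file headers; reads were aligned with BWA and the build was mm10, per the submitters' processing notes. Not given in the sources used here are the BWA version, the counting tool, its strand setting and its handling of reads that match several genes. Count models were not applied to FPKM, and near-identical or overlapping genes may share reads. Depth was read from the steps between low values; 73.1% to 77.6% of the values used were whole reads within the tolerance, against 21.2% to 23.1% at the median of other depths tried. All value columns were used, 0 being left out, and date-like symbols (23) were left as they stood.

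Genes with FPKM of at least 1 in at least 3 libraries were tested on log2(FPKM + 1), 11309 in all, with limma 3.58.1 in R 4.3.3: a 2-sided moderated test with an intensity trend, 1 variance per gene over 9 libraries, no covariate, and Benjamini-Hochberg adjustment over all genes tested within each of 3 contrasts, at a threshold of 0.05. With 3 against 3 libraries an exact permutation test of a single gene cannot go below p = 0.1, so none was used. The script was tested on simulated data. The members, the substrate classes, the other lists and the rule for genes whose values are given in every library were chosen with earlier results of these data known. That rule took, per class, the most abundant member and up to 4 members with the largest change among those that passed without overlap of libraries, and the 8 largest rises and falls per contrast; other members named were taken from the counts. All 145 members were matched by Entrez number to RefSeq's GRCm38.p6 annotation, the build that mm10 names.

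Nothing in the labels says that libraries of the same replicate number share a culture, animal or day, so no block was used. Correlations of their deviations from group means over genes were −0.04 to 0.05 (median 0.030). For different numbers they were −0.07 to 0.10 (median −0.005). Such small values do not exclude a pairing. Alternatives were a pseudocount of 0.1, no filter, a filter of 5 FPKM, a filter on the mean, quantile normalization, no intensity trend, only the libraries of a contrast, the replicate number as a block, and leaving out each library in turn. The values of 1 member are not reported here.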

Additional observations from a re-analysis of the deposited data

How the results depend on the processing

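The counts of the 134 members past the threshold stayed within 1.5 times their value under every alternative. So did those over all 145 (19 rises and 19 falls with 15d-PGJ2-PC, 35 and 38 with 15d-PGJ2, and 25 higher and 17 lower with 15d-PGJ2-PC than with 15d-PGJ2). The 145 include members that pass the level filter through 1 group, whose differences that filter partly set, so their counts add no support. Counting the 134 was chosen after seeing the data. Without 1 library at a time, rises among the 134 with 15d-PGJ2-PC numbered 14 to 17 and falls 14 to 20, rises with 15d-PGJ2 27 to 30 and falls 31 to 37, and members higher with 15d-PGJ2-PC than with 15d-PGJ2 19 to 23 and lower 10 to 15. With a filter of 5 FPKM, 26 members rose with 15d-PGJ2, fewer members being tested. Whether the replicate numbers pair the libraries is not stated. With the number as a block, 18 of the 134 rose and 20 fell with 15d-PGJ2-PC, and 29 rose and 36 fell with 15d-PGJ2. Between the treatments, 22 were higher and 14 lower with 15d-PGJ2-PC than with 15d-PGJ2 in that fit. The block lost the call of Slc6a6 (adjusted p = 0.0546) with 15d-PGJ2-PC, those of Slc12a5 (0.0505), Slc30a5 (0.0543) and Slc30a7 (0.0537) with 15d-PGJ2, and those of Slc2a9 (0.0854), Slc31a1 (0.0509), Slc37a1 (0.0578), Slc39a7 (0.0574) and Slc9a8 (0.0621) between the treatments. Differences that passed with the block and not in the fit reported included those of Slc14a1 (0.0146) with 15d-PGJ2-PC and Slc15a3 (0.0385) between the treatments. Of 107 calls of the 49 members of the 134 with values in every library, 21 were lost in at least 1 setting and 0 changes reversed. At this depth a member at 1 FPKM rests on about 17.4 reads, and small changes of scarce members cannot be seen.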

Other observations

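Carriers that bear other symbols were also measured, from a list of 78 of which 60 were in the table and 46 tested. Of these, 11 rose and 6 fell with 15d-PGJ2-PC, 14 rose and 10 fell with 15d-PGJ2, and 8 stood higher and 1 lower with 15d-PGJ2-PC than with 15d-PGJ2. Over all genes tested, 27.8% were called with 15d-PGJ2-PC, 47.2% with 15d-PGJ2 and 20.6% between the treatments. The medians of the log2 changes of the 46 were −0.01 with 15d-PGJ2-PC and −0.05 with 15d-PGJ2. Mfsd6, an orphan of the major facilitator family, averaged 6.66 ± 0.68 FPKM with 15d-PGJ2-PC, 13 ± 0.328 FPKM with 15d-PGJ2 and 4.9 ± 0.307 FPKM in control (SD, n = 3 libraries each). It rose with 15d-PGJ2-PC (log2 change 0.37, SE 0.08, adjusted p = 0.00654) and more with 15d-PGJ2 (log2 change 1.25, SE 0.08, adjusted p = 5.12e-07) by limma's test, and was lower with 15d-PGJ2-PC than with 15d-PGJ2 (log2 difference −0.87, SE 0.08, adjusted p = 4.29e-05). Mfsd12, a lysosomal and melanosomal protein tied to cystine import, averaged 70.5 ± 6.87 FPKM with 15d-PGJ2-PC, 45.7 ± 1.76 FPKM with 15d-PGJ2 and 87.8 ± 5.33 FPKM in control. It fell with 15d-PGJ2-PC (log2 change −0.31, SE 0.07, adjusted p = 0.00707) and 15d-PGJ2 (log2 change −0.93, SE 0.07, adjusted p = 1.5e-06), and was higher with 15d-PGJ2-PC than with 15d-PGJ2 (log2 difference 0.61, SE 0.07, adjusted p = 0.000159). Ctns, the lysosomal cystine exporter, averaged 12.7 ± 1.1 FPKM with 15d-PGJ2-PC, 9.61 ± 0.52 FPKM with 15d-PGJ2 and 9.88 ± 0.0902 FPKM in control. Ctns rose with 15d-PGJ2-PC (log2 change 0.33, SE 0.07, adjusted p = 0.00628) and gave no detectable change with 15d-PGJ2 (log2 change −0.04, 95% interval −0.20 to 0.13, adjusted p = 0.714). Clcn7, the lysosomal chloride and proton exchanger, averaged 76.3 ± 2 FPKM with 15d-PGJ2-PC, 72.1 ± 1.86 FPKM with 15d-PGJ2 and 57.9 ± 1.36 FPKM in control, and Pqlc2, the lysosomal exporter of cationic amino acids, 19.5 ± 2.23 FPKM with 15d-PGJ2-PC, 18.3 ± 0.898 FPKM with 15d-PGJ2 and 13.3 ± 0.97 FPKM in control. Both rose with 15d-PGJ2-PC (log2 change 0.39, SE 0.04, adjusted p = 3.61e-05 for Clcn7 and log2 change 0.52, SE 0.09, adjusted p = 0.00104 for Pqlc2) and with 15d-PGJ2 (log2 change 0.31, SE 0.04, adjusted p = 7.3e-05 and log2 change 0.44, SE 0.09, adjusted p = 0.0017). Unc93b1, the chaperone of nucleic acid-sensing Toll-like receptors, averaged 682 ± 10.8 FPKM with 15d-PGJ2-PC, 602 ± 10.01 FPKM with 15d-PGJ2 and 765 ± 18 FPKM in control. It fell with 15d-PGJ2-PC (log2 change −0.17, SE 0.03, adjusted p = 0.00124) and 15d-PGJ2 (log2 change −0.35, SE 0.03, adjusted p = 2.36e-06).

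Of 13 partners and regulators of carriers, 11 were tested. With 15d-PGJ2-PC 1 rose and 4 fell, where 27.8% of all genes were called, and with 15d-PGJ2 2 rose and 4 fell, where 47.2% were. Sgk1, a kinase that stabilises several carriers at the cell surface, averaged 18.4 ± 1.57 FPKM with 15d-PGJ2-PC, 16.4 ± 0.627 FPKM with 15d-PGJ2 and 30.3 ± 1.51 FPKM in control. It fell with 15d-PGJ2-PC (log2 change −0.69, SE 0.07, adjusted p = 3.01e-05) and 15d-PGJ2 (log2 change −0.85, SE 0.07, adjusted p = 2.22e-06). Bsg, the chaperone of monocarboxylate transporters, averaged 135 ± 6.57 FPKM with 15d-PGJ2-PC, 141 ± 8.14 FPKM with 15d-PGJ2 and 138 ± 3.53 FPKM in control. Its change was not detectable with 15d-PGJ2-PC (log2 change −0.03, 95% interval −0.14 to 0.08, adjusted p = 0.709) or 15d-PGJ2 (log2 change 0.04, 95% interval −0.07 to 0.15, adjusted p = 0.576).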
